A study of Mus musculus with 6 samples.

Results

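The sites described here are the places within and around the mouse genes Ctbp1 and Ctbp2 at which the CTBP2 protein itself was measured. They were chosen by position only, as every site whose centre lay between 132.55 and 132.8 Mb of chromosome 7 (Ctbp2) or between 33.36 and 33.48 Mb of chromosome 5 (Ctbp1) in the deposited site table. This gave 10 sites for Ctbp2 and 4 for Ctbp1, 14 of 62236 in all, each 1001 bp wide. CTBP2 was profiled by chromatin immunoprecipitation and sequencing (ChIP-seq) in macrophages grown in culture for 6 days from bone marrow of wildtype male C57BL6/N mice aged 6 to 12 weeks. The vehicle group (3 libraries) received PBS, and the LPS group (3 libraries) received lipopolysaccharide, a component of the bacterial cell wall, at 100 ng/ml for 3 h. All cells were crosslinked with DSG and formaldehyde, and 1 CTBP2 antibody served for all 6 libraries. Replicates are numbered in the labels, but no source says whether they were separate mice or dishes, so every p-value rests on library-to-library spread that could be technical only. Input chromatin and control antibodies were not analysed here.

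CTBP1 and CTBP2 (C-terminal binding proteins) are closely related transcriptional co-repressors. They do not read a DNA sequence themselves but are brought to chromatin by DNA-binding factors, and they form dimers that depend on NAD(H), through a fold related to that of dehydrogenases. On chromatin they assemble with histone deacetylases, the histone demethylase KDM1A and the histone methyltransferases EHMT1 and EHMT2. CTBP1 also has a role outside the nucleus in membrane fission, under the name BARS, and Ctbp2 also encodes RIBEYE, a protein of the synaptic ribbon, from another start. Setting LPS against vehicle addresses how CTBP2 occupancy differs under an inflammatory stimulus, here at the genes of CTBP2 and its close relative.

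Values below are median-scaled. Each library's deposited values were divided by that library's median over all sites and multiplied by 48.8, the mean of the 6 medians, so that a site at 48.8 is a typical site of its library. The medians as deposited ran from 35.5 to 73.0. Taking the step between neighbouring low values as 1 read, the libraries held 3243258 to 4553179 reads in sites. No source used here gives the counts, so read numbers are inferred from these steps and no count test was run on them. On the same reading the Ctbp2 sites held 12 to 195 reads per library and the Ctbp1 sites 9 to 163. Of all 62236 sites, 10033 (16.1%) were higher in LPS and 8408 (13.5%) lower, at an adjusted p under 0.05 by limma. The median log2 fold over all sites was -0.02.

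Site positions and the available RefSeq gene starts (build GRCm38.p6) are on different coordinates, so the sites were placed against the genes by a measured offset. Around each gene, the shift was taken at which the most starts of other genes within 2 Mb had a site centre within 500 bp. Around Ctbp2, 22 of 56 other starts met a site at a shift of -398 kb, and the next best shift more than 2 kb away had 9. Around Ctbp1, 46 of 83 did at 157 kb, and the next best had 15. Distances are given from the outermost RefSeq start of each gene at this offset, carry an uncertainty of about the 500 bp tolerance, and are counted along the gene. Sites are named by that distance. The deposited table names Oat, Lhpp or Fam53b for the Ctbp2 sites and Maea or Uvssa for the Ctbp1 sites. It gives the names Ctbp1 or Ctbp2 to 21 sites, of which 0 lie in these windows.

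**Figure D1:**
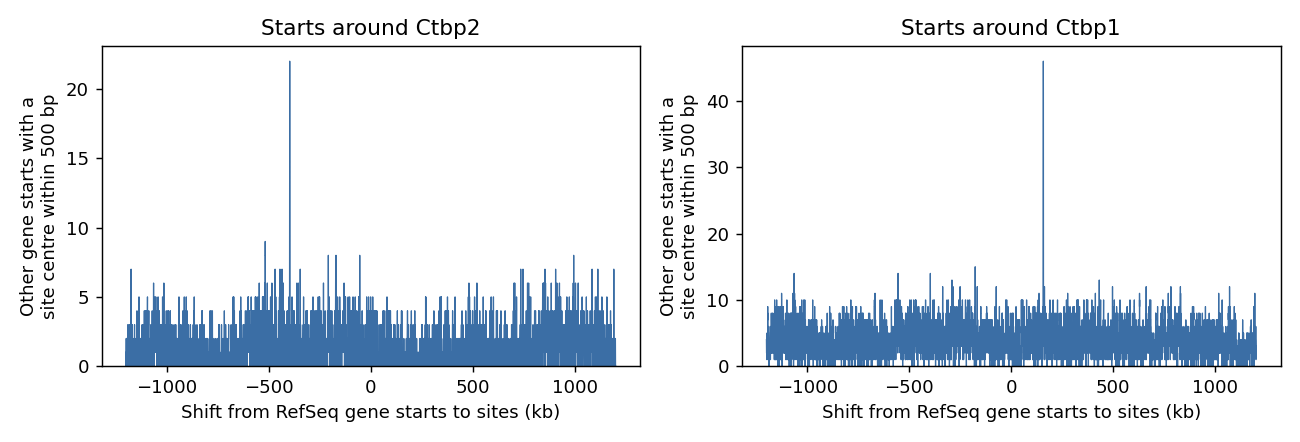
Number of RefSeq gene starts other than Ctbp2 (left) or Ctbp1 (right) with a site centre within 500 bp (vertical axis) at each shift between gene starts and sites (horizontal axis, kb). Each panel has 1 tall peak, of 22 starts at -398 kb around Ctbp2 and of 46 starts at 157 kb around Ctbp1.

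CTBP2 occupied the outermost start of its own gene strongly, and no difference between the groups beyond the spread of the libraries was found there. The site lay 0.19 kb inside the gene (chromosome 7, 132724917 to 132725917) and had the highest mean of all 14. It stood at 158, 166 and 165 in vehicle replicates 1 to 3 and at 175, 173 and 126 in LPS replicates 1 to 3. LPS replicates 1 and 2 lay above all vehicle libraries and LPS replicate 3 below them, so the groups overlapped. The means were 163 ± 4.18 and 158 ± 27.8 (SD, n = 3 each). The log2 fold was -0.06 (limma adjusted p = 0.778, SE 0.14, 95% interval -0.35 to 0.23). Its mean over all libraries stood at the 96.6th percentile of all sites, and at the 93.0th of the 7648 sites within 1000 bp of a placed gene start, whose median was 82.4. Gm35364, a gene model that overlaps Ctbp2 there, shares this site.

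Away from that start, CTBP2 signal was lower after LPS at some sites of the Ctbp2 window but not at all. Of its 10 sites, 3 were called lower by limma on median-scaled values, against 13.5% of all sites. None of these calls held without scaling. The clearest case was the +44.8 kb site (chromosome 7, 132680336 to 132681336). It had 119, 114 and 116 in vehicle replicates 1 to 3 and 70.3, 69.2 and 64.7 in LPS replicates 1 to 3. Every LPS library lay far below every vehicle library, and the libraries of each group lay close together. In reads these were 100, 129 and 93 against 62, 78 and 69. The means were 117 ± 2.30 and 68.1 ± 2.96 (SD, n = 3 each), and the log2 fold was -0.77 (limma adjusted p = 0.000197, SE 0.15, 95% interval -1.08 to -0.46). This is a change of -41.3%, at the 4.97th percentile of log2 folds over all sites. The site lay 2.62 kb past an inner RefSeq start of Ctbp2. In these bulk libraries, fewer cells with CTBP2 at a site and less CTBP2 there in each cell cannot be told apart.

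The +75.7 kb site (chromosome 7, 132649405 to 132650405), also inside the gene, fell too. It had 73.8, 77.2 and 103 in vehicle replicates 1 to 3 and 60.1, 52.3 and 58.2 in LPS replicates 1 to 3. All LPS values lay below all vehicle values, and vehicle replicate 3 stood above the other vehicle libraries. The log2 fold was -0.55 (limma adjusted p = 0.0136, SE 0.17). It was -0.40 (limma adjusted p = 0.084) without vehicle replicate 3 and -0.49 (limma adjusted p = 0.0742) without LPS replicate 2, where the call was lost.

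The +141 kb site (chromosome 7, 132584040 to 132585040) was the third that fell. It lies past the end of Ctbp2, inside its neighbour Zranb1, which encodes a deubiquitinase. The values were 48.8, 40.8 and 41.3 in vehicle replicates 1 to 3 and 23.8, 31.1 and 29.1 in LPS replicates 1 to 3, again without overlap. The log2 fold was -0.63 (limma adjusted p = 0.0253, SE 0.21). Without vehicle replicate 1 it was -0.54 (limma adjusted p = 0.117) and without LPS replicate 1 -0.52 (limma adjusted p = 0.0963), and the call was lost in both. The start of Zranb1 itself was outside the window: the site 0.222 kb from it, the last before the window, had means of 75.2 and 79.5 in vehicle and LPS (log2 fold 0.13).

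A pair of Ctbp2 sites had LPS libraries wholly below vehicle without passing the test. At the +53.4 kb site (chromosome 7, 132671706 to 132672706) the values were 51.2, 67.4 and 70.0 in vehicle replicates 1 to 3 and 51.1, 43.5 and 45.0 in LPS replicates 1 to 3. The lowest vehicle and the highest LPS library almost touched, and the log2 fold was -0.42 (limma adjusted p = 0.0796, SE 0.18). This site was called without vehicle replicate 1 (log2 fold -0.56, limma adjusted p = 0.038). The weaker +65.2 kb site (chromosome 7, 132659935 to 132660935) had 36.9, 39.9 and 32.5 in vehicle and 29.5, 21.3 and 27.2 in LPS, a log2 fold of -0.48 (limma adjusted p = 0.125, SE 0.24).

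The remaining Ctbp2 sites overlapped between groups. The +70.8 kb site (chromosome 7, 132654263 to 132655263), the next strongest after the start and the +44.8 kb site in vehicle, had 111, 115 and 120 in vehicle replicates 1 to 3 and 99.9, 121 and 83.5 in LPS replicates 1 to 3. LPS replicate 2 was the highest library of all and LPS replicate 3 the lowest, and the log2 fold was -0.20 (limma adjusted p = 0.344, SE 0.15, 95% interval -0.51 to 0.11). This site is 4.86 kb from the +75.7 kb site, the closest pair in the window. At the +8.72 kb site (chromosome 7, 132716385 to 132717385) vehicle had 60.7, 60.3 and 73.8 and LPS 63.5, 48.8 and 41.3, a log2 fold of -0.35 (limma adjusted p = 0.148). The +38.2 kb site (means 33.4 and 35.5) and the +125 kb site (means 23.2 and 25.8) had the lowest vehicle means of the window, with log2 folds of 0.11 and 0.16 (SE 0.23 and 0.37). The +125 kb site was the least even, with 14.3, 17.8 and 37.5 in vehicle and 23.8, 14.2 and 39.4 in LPS. Another inner RefSeq start of Ctbp2 had its closest site, this one, 16.0 kb away.

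Of the 10 Ctbp2 sites, 3 were lower and 0 higher at a limma adjusted p under 0.05, against 13.5% and 16.1% of all sites. At an unadjusted limma p under 0.05, 5 were lower and 0 higher, against 19.1% and 20.7%. The LPS libraries lay wholly below vehicle at 5 of 10 and wholly above at 0, against 20.6% and 21.6% of all sites. The median log2 fold of the 10 was -0.38. The called sites were not start sites, and over all sites 14.5% of sites away from placed starts and 6.38% of those within 1000 bp of one were lower (17% and 9.57% were higher). On the deposited values without scaling the log2 folds of the 3 called sites were -0.70 (+44.8 kb), -0.49 (+75.7 kb) and -0.56 (+141 kb), and none passed (limma adjusted p = 0.75, 0.936 and 0.878). In the authors' deposited table, none of the members had an FDR under 0.05, and their lowest FDR, 0.393, was that of the +44.8 kb site with a log2 fold of -0.264. That fold is smaller in size than the -0.70 from the deposited values without scaling. The authors' folds are therefore an unlike measure and are not compared in size with those of limma. Over all sites the authors' deposited table has 2497 (4.01%) higher and 230 (0.37%) lower at that FDR, far fewer than the limma fit, so 0 of 14 is near its background.

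**Figure D2:**
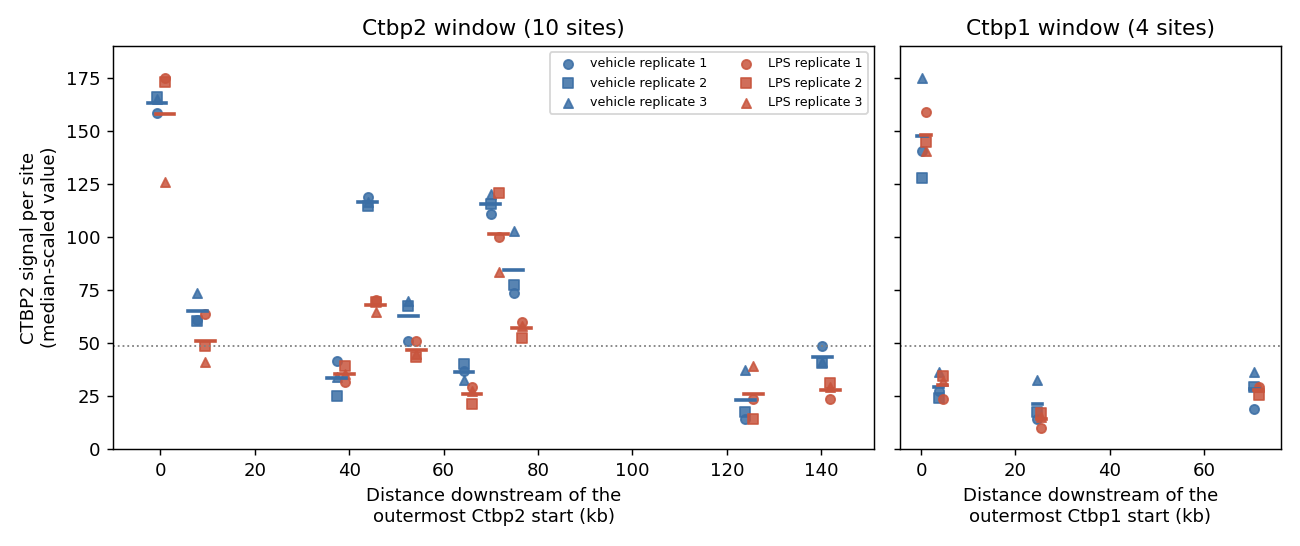
Median-scaled CTBP2 signal (vertical axis) at the 10 Ctbp2 sites (left) and the 4 Ctbp1 sites (right) by distance downstream of the outermost start (horizontal axis, kb). Points are libraries, short lines are means of 3, groups are set slightly apart for sight, and the dotted line is the library median of 48.8. At the starts the groups overlap, while at the +44.8 kb Ctbp2 site vehicle lies near 117 and LPS near 68.1.

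At Ctbp1 the strong site was again the one at the gene start, and here too the groups did not differ beyond the spread of the libraries. This site (chromosome 5, 33431185 to 33432185) had its centre 0.62 kb inside the gene. It had 140, 128 and 175 in vehicle replicates 1 to 3 and 159, 145 and 141 in LPS replicates 1 to 3. All LPS values fell between the lowest and the highest vehicle value. The means were 148 ± 24.5 and 148 ± 9.55 (SD, n = 3 each). The log2 fold was 0.01 (limma adjusted p = 0.956, SE 0.14, 95% interval -0.28 to 0.30). The sign turned on quantile normalised values (-0.04). The mean over all libraries stood at the 95.4th percentile of all sites and at the 90.4th of start sites.

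The RefSeq promoters (GRCm38.p6, minus strand, 250 bases before to 50 after the start) are shown for the Ctbp1 start beside this strong site and for the inner Ctbp2 start closest to the +44.8 kb site, because they differ in base composition. Capitals mark GGGCGG or its reverse complement, the box bound by SP and KLF factors. The table used here holds no promoter for the outermost Ctbp2 start, so the strong start sites of the 2 genes are not compared here. The inner Ctbp2 start shown is 2.62 kb from its closest site.
Ctbp1, chr5:33274955-33275254: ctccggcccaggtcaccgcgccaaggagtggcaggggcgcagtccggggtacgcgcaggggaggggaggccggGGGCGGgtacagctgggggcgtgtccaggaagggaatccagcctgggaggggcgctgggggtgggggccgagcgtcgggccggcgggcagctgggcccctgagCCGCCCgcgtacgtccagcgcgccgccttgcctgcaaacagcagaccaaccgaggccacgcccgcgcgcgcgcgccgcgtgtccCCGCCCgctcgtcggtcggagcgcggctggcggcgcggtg
Ctbp2 inner start, chr7:133081811-133082110: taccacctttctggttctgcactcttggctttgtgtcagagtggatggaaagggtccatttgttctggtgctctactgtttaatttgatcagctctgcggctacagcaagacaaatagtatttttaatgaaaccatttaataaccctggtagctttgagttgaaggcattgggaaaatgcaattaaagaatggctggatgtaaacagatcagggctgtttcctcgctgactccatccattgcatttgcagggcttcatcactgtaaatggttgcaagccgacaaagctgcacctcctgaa

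The Ctbp1 promoter was 78.7% G and C, at the 98.4th percentile of 32851 RefSeq promoters of the same length (median 52.7%), and held 43 CG steps (median 7). The inner Ctbp2 promoter was 43.7% G and C, at the 18.2nd percentile, with 3 CG steps. The promoter of the other inner Ctbp2 start, whose closest site is 16.0 kb away, was close to the median, with 52% G and C (46.6th percentile) and 8 CG steps. GGGCGG, on both strands, occurred 3 times in the Ctbp1 promoter and 0 times in the printed inner Ctbp2 promoter, and 35.7% of all promoters held it. On both strands neither printed promoter held CACCTG, the E-box read by the CtBP partners ZEB1 and ZEB2 (20.2% of promoters). The same held for TGANTCA, the AP-1 motif (7.81%), and the NF-kB motif (8.46%). TATAAA (13.6% of promoters) was in neither of them. The other inner Ctbp2 promoter held it 1 time on each strand, in overlapping bases of 1 place, and none of the other motifs. These letters were looked for only in these 300 bases.

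The other Ctbp1 sites were weak. The +4.17 kb site (chromosome 5, 33427634 to 33428634) had 27.4, 23.9 and 36.3 in vehicle replicates 1 to 3 and 23.8, 34.6 and 31.9 in LPS replicates 1 to 3, a log2 fold of 0.05 (SE 0.25). The +25.1 kb site (chromosome 5, 33406704 to 33407704), close to the end of the gene, had 14.3, 17.8 and 32.5 in vehicle and 10.2, 16.9 and 15.0 in LPS. Its groups overlapped, and its log2 fold of -0.53 had an SE of 0.42 (limma adjusted p = 0.372). The +71.1 kb site (chromosome 5, 33360682 to 33361682), beyond the end of Ctbp1 and in no annotated gene body at the offset, had 19.0, 29.3 and 36.3 in vehicle and 29.5, 25.7 and 29.1 in LPS, a log2 fold of 0.04 (SE 0.27). Vehicle replicate 3 was the highest of the vehicle libraries at all 4 Ctbp1 sites. Of these 4 sites, 0 were higher and 0 lower by limma, at an unadjusted p under 0.05 as well, and all 4 had overlapping groups. Of all sites, 16.1% were higher and 13.5% lower by limma, and 20.7% and 19.1% at an unadjusted p under 0.05. The LPS libraries lay wholly above vehicle at 21.6% of all sites and wholly below at 20.6%. With only 4 sites, counts of 0 are near these shares. On quantile normalised values the log2 folds of the +4.17 and +71.1 kb sites were -0.06 and -0.08. The 3 weak sites held 9 to 39 reads per library. At the +25.1 kb site the 95% interval of the log2 fold, -1.39 to 0.33, included changes as large as those inside Ctbp2. The intervals of the +4.17 kb site (-0.46 to 0.56) and the +71.1 kb site (-0.50 to 0.58) did not reach the -0.77 of the +44.8 kb Ctbp2 site. That value was the lowest log2 fold of the 14, and its own interval ran from -1.08 to -0.46. A difference in response between single sites of the 2 genes was not tested.

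**Figure D3:**
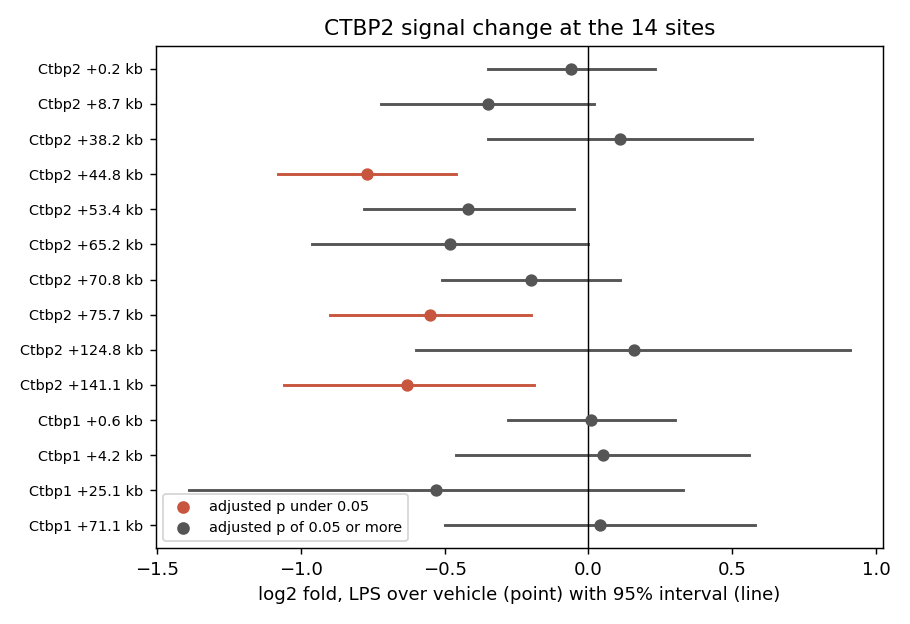
Log2 fold of LPS over vehicle (points, limma) with 95% intervals (lines) for the 14 sites, named by gene and distance from the outermost start. Red marks the 3 sites with an adjusted p under 0.05, all in the Ctbp2 window and all below 0. Both start sites lie near 0, at -0.06 and 0.01.

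In order of level in vehicle, both start sites came first, Ctbp2 above Ctbp1, with overlapping ranges. The +44.8 and +70.8 kb Ctbp2 sites followed with overlapping ranges (means 117 and 115) and lay wholly below the start sites. Then came the +75.7, +8.72 and +53.4 kb sites, each overlapping its neighbour, and the +141 kb site, wholly below these. The other Ctbp2 sites and the 3 weak Ctbp1 sites had means from 36.4 down to 21.5, and among them each range overlapped the next. In LPS both starts again led with overlapping ranges. The +70.8 kb site (101) then lay wholly above the +44.8 kb site (68.1), and that wholly above the +75.7 kb site (56.9). Of the 14, 7 had a mean over all libraries above the library median, and only 1 of these was in the Ctbp1 window.

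Because a ratio of sites within a library does not depend on how that library was scaled, each site was also set against the strongest site of its window, which is the start site in both genes. The +44.8 kb site stood at 75.2%, 69.0% and 70.5% of the Ctbp2 start site in vehicle replicates 1 to 3 and at 40.3%, 40.0% and 51.5% in LPS replicates 1 to 3. The groups did not overlap, with means of 71.5% ± 3.24 and 43.9% ± 6.56 (SD, n = 3 each). The exact two-sided permutation test gave p = 0.1, the smallest that 3 against 3 libraries allow, and 0.343 after adjustment over the 12 ratios computed. The +75.7 kb site (46.6%, 46.5% and 62.1% against 34.4%, 30.3% and 46.3%) and the +141 kb site (30.8%, 24.6% and 25.0% against 13.6%, 17.9% and 23.1%) also did not overlap between groups. These 3 ratios were lower in every LPS library, and the other 9 overlapped. They belong to the 3 sites called by limma on the same libraries, so they are not separate evidence for those calls. All Ctbp2 ratios share the start site, which was low in LPS replicate 3 (126). Such ratios were not computed for other sites, so no share over all sites stands beside this count.

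Summed over its 10 sites, the Ctbp2 window had 715, 724 and 793 in vehicle replicates 1 to 3 and 629, 613 and 550 in LPS replicates 1 to 3. No LPS library reached the lowest vehicle library. The means were 744 ± 42.7 and 597 ± 41.8 (SD, n = 3 each), a log2 ratio of -0.32 (exact permutation p = 0.1). For each window's sums, the log2 ratio is that of the group means. Its permutation test instead compared group means of the log2 sums. On the deposited values without scaling the log2 ratio was -0.35 (exact permutation p = 0.8). The Ctbp1 window had 201, 199 and 280 in vehicle and 222, 222 and 217 in LPS, with means of 227 ± 46.4 and 220 ± 3.12 (SD, n = 3 each) and a log2 ratio of -0.04 (exact permutation p = 1). All LPS libraries fell inside the vehicle range, which vehicle replicate 3 set at its upper end. Without that library the log2 ratio of Ctbp1 was 0.14 (exact permutation p = 0.1), and every LPS library lay above the remaining vehicle libraries. The overlap of the Ctbp1 sums thus rests on vehicle replicate 3. The difference between the windows was tested as the log2 of the Ctbp2 sum over the Ctbp1 sum within each library. It was 1.83, 1.87 and 1.50 in vehicle and 1.50, 1.47 and 1.34 in LPS, a difference of -0.30 (exact permutation p = 0.1, the smallest possible). On quantile normalised values it was -0.24 (exact permutation p = 0.3). Vehicle replicate 3 and LPS replicate 1 almost touched. With 3 libraries per group this test cannot reach 0.05, so it does not settle if the 2 genes differed in their response.

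**Figure D4:**
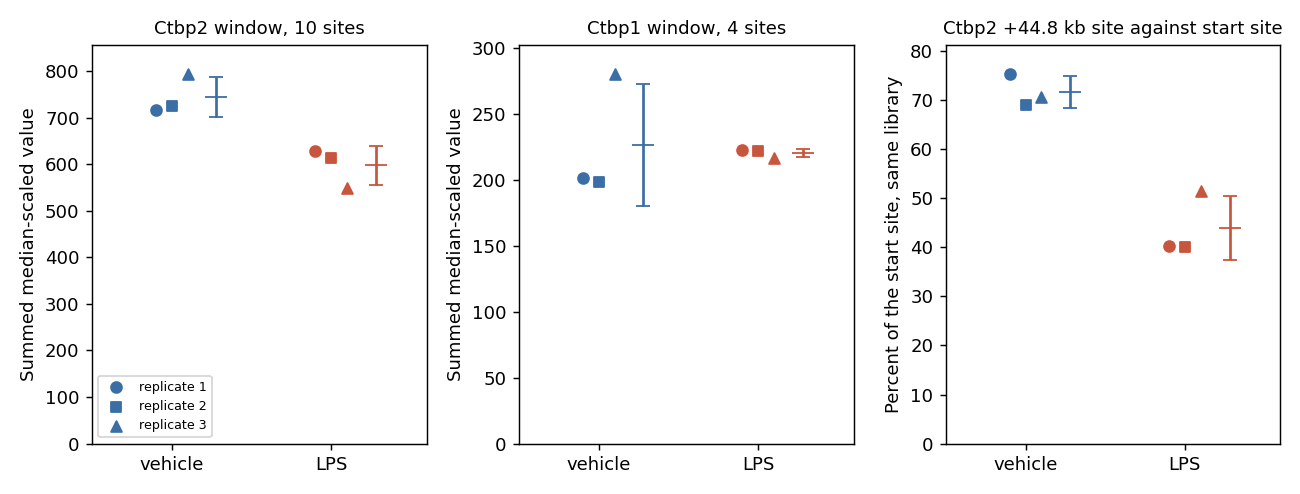
Summed median-scaled signal of the Ctbp2 window (left) and the Ctbp1 window (middle), and the +44.8 kb Ctbp2 site as a percent of the Ctbp2 start site (right), for 3 vehicle and 3 LPS libraries. Points are libraries and bars are mean ± SD. The groups are separate for Ctbp2 (550 to 629 against 715 to 793) and for the ratio, and overlap for Ctbp1.

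Site spacing and the sites at the window edges describe the surroundings. Sites of the Ctbp2 window were a median of 8.63 kb apart and those of the Ctbp1 window 20.9 kb, against 8.48 kb over all sites. Beyond the Ctbp2 start the next site lay 439 kb past the window's edge, 0.044 kb from the start of Edrf1, with means of 108 and 107. The last site inside that edge was the Ctbp2 start site, 74.6 kb from it. At the other edge the +141 kb site lay 34.5 kb inside and the Zranb1 start site 17 kb outside. For Ctbp1, the site just outside, 80.5 kb before the edge, had means of 13.95 and 50.5 in vehicle and LPS (log2 fold 1.82), while the +71.1 kb site lay 1.18 kb inside it. At the far edge the Ctbp1 start site lay 48.3 kb inside, and the site 13.0 kb outside had means of 104 and 113.

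Across the 6 libraries, many sites followed the pattern of the start sites, judged by the root mean square difference of log2 values. For the Ctbp2 start the closest sites elsewhere were on chromosome 2 (153385491 to 153386491, difference 0.079, 14.02 kb from the placed start of Nol4l), chromosome 6 (31057065 to 31058065, 0.082, 42.8 kb from Gm40359) and chromosome 4 (114913644 to 114914644, 0.084, 0.618 kb from Tal1, a haematopoietic transcription factor gene). For the Ctbp1 start they were on chromosome 9 (124043906 to 124044906, 0.048, 67.9 kb from Gm39469), chromosome 10 (122514123 to 122515123, 0.055, 0.018 kb from Gm36284) and chromosome 1 (160733321 to 160734321, 0.060, 0.09 kb from Rc3h1, which encodes the RNA-binding protein roquin). In all, 391 and 659 sites lay within 0.2 of the Ctbp2 and the Ctbp1 start site. Over only 6 libraries such likeness is a description of level.

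Genes of the wider CtBP co-repressor complex and of factors known to recruit it were examined in the same way, from a list of 39. A start could be placed for 16 of them, and 12 had a site within 1000 bp of it. Of the 12, 1 had a higher and 1 a lower start site, against 9.45% and 5.87% of the 8616 genes with a start site. Klf3, which encodes a repressor that recruits CtBP, had 340, 344 and 303 in vehicle replicates 1 to 3 and 431, 426 and 428 in LPS replicates 1 to 3 at its start. Every LPS library lay above vehicle (log2 fold 0.38, limma adjusted p = 0.0105, SE 0.11). This call was lost without scaling, on quantile normalised values, without limma's trend and robust options and without LPS replicate 2. It also failed at an adjusted p under 0.01. Without vehicle replicate 3, 2 genes of the list were higher. One start of Runx1, a haematopoietic transcription factor gene, had 158, 191 and 185 in vehicle and 99.9, 127 and 126 in LPS. It was lower in every LPS library (log2 fold -0.60, limma adjusted p = 0.0015, SE 0.14), while another Runx1 start had a log2 fold of 0.19 (limma adjusted p = 0.342). The lower call was lost without scaling.

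The start of Kdm1a, the demethylase of the complex, was near the library median, at 59.0 ± 7.01 and 58.6 ± 10.2 (SD, n = 3 each, vehicle first). Those of the methyltransferase genes Ehmt1 (104 ± 27.96 and 97.2 ± 16.5) and Ehmt2 (69.2 ± 17.3 and 66.7 ± 4.41), and of Rcor1, which encodes the scaffold CoREST (82.4 ± 26.6 and 80.4 ± 1.39), had log2 folds of -0.08, -0.03 and 0.01. The means of all 4 were below those of the start sites of Ctbp2 and Ctbp1 in both groups. These 4 were picked after their values were seen, and not every list gene was below. The Klf3 start, with means of 329 in vehicle and 428 in LPS, was above both. Counted instead by the names in the deposited table, 15 and 16 of 23 list genes had a higher and a lower site, against 45% and 42.8% of all named genes, but those names follow other coordinates than the sites. Of macrophage genes, 3 could be placed and 2 had a start site, Cd68 (281 ± 52.5 and 219 ± 5.24, log2 fold -0.34, limma adjusted p = 0.0471) and Itgam (225 ± 32.6 and 241 ± 28.9). Of 6 placed genes of neutrophils, lymphocytes or fibroblasts, 1 had a start site, S100a8 (47.8 ± 11.0 and 62.2 ± 11.6). These are occupancies of CTBP2 and not expression, so they do not test the identity of the cells.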

How the data were processed

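One deposited table of 62236 sites was used, and 61976 of them were 1001 bp wide. Its 6 signal columns were normalised by the authors with 1 factor per library, since 100% of the deposited values were whole multiples of 1 step per column within 0.1 read; no source used here says what set the factor. The authors' deposited log2 folds, p-values and FDR are quoted only by name. Per the submitters' processing notes, the tools included BWA 0.7.17, MACS3 3.0.0a5 and DiffBind 3.16 and the builds mm39, GRCm39 and mm10, with no step named; the table states no build, and the choice of windows takes the site positions to be GRCm39. No source used here says if peak calling pooled the libraries.

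Columns were scaled to a common median, and limma 3.58.1 (R 4.3.3, with trend and robust estimation) was fitted on log2(value + 1) over all sites and 6 libraries with no covariates and Benjamini-Hochberg adjustment, and tested on simulated data. Folds are on this log2(value + 1) scale, where the added 1 makes a change at a low site smaller than the plain ratio of its values. Gene starts came from RefSeq tables (GRCm38.p6). They were placed at a locally measured shift (up to 1.2 Mb, steps of 100 bp, at least 8 hits and 1.5 times the next best), for 18736 of 26568 genes. With a gene's own starts left out of its shift, 36.6% of placed starts had a site within 500 bp, against 5.35% unshifted. Coordinates were not converted.

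Members, windows and gene lists were chosen with earlier results of these data known. Values are given for the 5 strongest sites, the start sites, called sites and edge sites of each window, the remaining members, the 3 most similar sites and list genes with the smallest adjusted p; Kdm1a, Ehmt1, Ehmt2 and Rcor1 were added as subunits after their values were seen. The lists were CtBP partners, macrophage genes and genes of other cells. Alternatives covered scaling, pseudocount, a filter, limma options, a replicate block, the FDR and leaving out each library; 75th percentile scaling and the offset placement were added after seeing the data. Read numbers cover counting error only.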

Additional observations from a re-analysis of the deposited data

How the results depend on the processing

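On the deposited values without scaling, 0 Ctbp2 sites were lower, all sites higher and lower numbered 1178 and 30 (97.5% higher, against 54.4% with median scaling), and partner genes with a higher or lower site under the table's names numbered 8 and 1. At an adjusted p under 0.01, 1 Ctbp2 site and 4699 of all sites were lower. With starts placed by the measured offset, 1 partner gene was higher and 1 lower, in place of 15 and 16. The +44.8 kb call held without each single library (log2 fold -0.79 to -0.73) and failed only without scaling. The Ctbp2 sites lower numbered 2 to 3 without each library, and the log2 ratios of sums ranged from -0.36 to -0.26 (Ctbp2), -0.13 to 0.14 (Ctbp1) and -0.41 to -0.23 (difference). Some values that did not pass in any setting turned sign. On quantile normalised values the Ctbp1 sites at +0.62, +4.17 and +71.1 kb had -0.04, -0.06 and -0.08. Without single libraries the ranges were -0.08 to 0.14, -0.08 to 0.21 and -0.21 to 0.24 at these, and -0.20 to 0.55, -0.08 to 0.28 and -0.14 to 0.09 at the Ctbp2 sites at +125, +38.2 and +0.19 kb. Calls at the +75.7 and +141 kb sites were each lost without 2 of the 6 libraries. The cause was not tested. Of the sites that turned sign, the 2 start sites held 118 to 195 reads per library and the weaker sites 12 to 44. The +75.7 and +141 kb sites held 53 to 87 and 21 to 46.

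With the replicate block, 4 Ctbp2 sites were lower and 11691 and 10397 of all sites were higher and lower; the added site was +53.4 kb (log2 fold -0.42, limma adjusted p = 0.047). Deviations of same-numbered libraries correlated at 0.111, 0.038 and 0.214 across sites. Those of different-numbered libraries ran from -0.205 to 0.148 and were mostly negative. Not every library correlated best with its own number, and no source gives a pairing, so the main fit did not pair them. These correlations do not settle if the numbers pair libraries. No paired fit was made of the sums.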
